A study of Caenorhabditis elegans with 24 samples.

Results

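The peaks described here were called in replicate 1 of a TDP-1 ChIP-seq experiment in Caenorhabditis elegans and were not called in replicate 2. A peak was taken as a member if it shared not a single base with any peak of replicate 2 and none with any peak of the same ChIP performed on RNase-treated extract. The members were thus chosen by the peak calls themselves. By this rule 13967 of the 16028 replicate 1 peaks were members (87.1%, 95% Wilson interval 86.6 to 87.7), out of 19400 peaks in the 3 libraries together. Another 1991 replicate 1 peaks (12.4%) overlapped a replicate 2 peak and no RNase peak, and these shared peaks are the comparison used throughout. The remaining 70 peaks (0.437%) overlapped an RNase peak, of which 42 also overlapped replicate 2 and 28 did not. Replicate 2 had 3204 peaks, of which 2284 (71.3%, 69.7 to 72.8) overlapped replicate 1, and the RNase library had 168.

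TDP-1 is the worm ortholog of human TDP-43, a nuclear RNA-binding protein with RNA recognition motifs that binds UG-rich RNA and acts in splicing and RNA stability. ChIP of such a protein recovers DNA mainly through nascent transcripts that are still attached to chromatin, so RNase treatment before the immunoprecipitation removes signal that depends on RNA. The autosomes of C. elegans have gene-dense centres that recombine little, and arms that are richer in repeats. Repeats that pair within a transcript form double-stranded RNA, the substrate of the deaminase ADR-2, which converts adenosine to inosine (A-to-I editing).

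All 3 ChIP libraries came from young adults raised at 20°C, and the labels give their strain as tdp-1(ok803), a deletion allele of the gene that encodes the immunoprecipitated protein. The paper describes this allele as apparently a clear null, so animals of that strain would hold no TDP-1 to precipitate. The methods name no strain for the ChIP, and which animals were used cannot be settled from these sources. Replicates 1 and 2 were called with the RNase library as the control. The methods ask for overlap between the replicates and no RNase peak before a region is counted as bound. The paper reports more bound peaks than this rule gives on the peak calls used here. Its methods set a looser p-value cut-off for peaks than the lowest score of these calls implies (a p of 1e-05). Whether the cut-off accounts for the difference was not tested. Being a member therefore does not show that a region was left out of the peaks that the paper counted. Also used here were a list of A-to-I edited regions from total RNA of wild-type (N2), tdp-1(ok803) and adr-2(gv42) L4 larvae raised at 20°C, and J2-IP libraries (3 wild-type, 3 tdp-1(ok803)) with 1 input library per genotype, from young adults raised at 15°C. J2 is an antibody that recognises double-stranded RNA. The read depth of the ChIP libraries is unknown, each ChIP condition compared is 1 library, and peaks of a library are not replicates of a condition. Wilson intervals therefore cover counting error only. Score, length and position come from the calls that chose the members, so they are given as a description with no test.

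Members were weak peaks on the whole, but the set held many strong ones. The score of a peak is −10 log10 of the p-value of the peak caller, and the lowest score was 50.01 in replicate 1 and 50 in replicate 2, which is a p of 1e-05. Members had a median score of 170.4 (95% interval of the median 166.7 to 174.6), with 10% of them at or below 63.3 and 10% at or above 836.6. Shared peaks had a median of 658.6 (601.8 to 720.6). Of the members, 1933 (13.8%) scored at or above the median of the shared peaks. A score of at least 100 was reached by 70.6% of members and 90.1% of shared peaks, and a score of at least 1000 by 8.04% and 39.7%. The value 3100 recurred exactly in 160 members and 352 shared peaks, and 175 members (1.25%) were at or above it, against 364 shared peaks (18.3%). Why this value recurs is not given in the sources used here, so the order of peaks at and above it may not be one of strength.

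**Figure D1:**
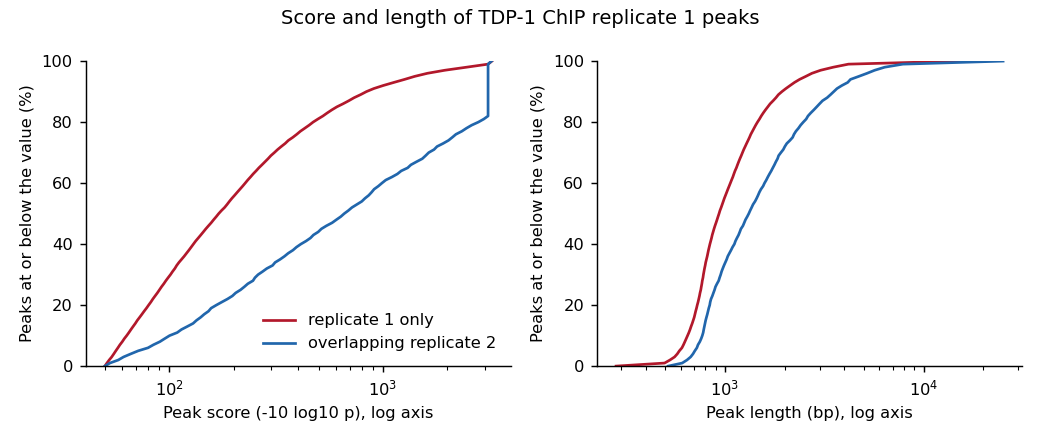
Cumulative share of replicate 1 peaks (y axis, %) against peak score (left, −10 log10 p) and peak length (right, bp), both on log axes, for the 13967 members (red) and the 1991 shared peaks (blue). The members' curves lie to the left of the shared peaks' curves, with medians of 170.4 against 658.6 in score and 936 against 1321 bp in length, and the upright step of the shared peaks marks the score of 3100.

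The share of replicate 1 peaks that overlapped replicate 2 climbed steeply at the top of the score range. Replicate 1 peaks were split by score into 10 bins of near-equal size. In bin 1, with the lowest scores (50.01 to 64.67), 75 of 1603 peaks overlapped replicate 2 (4.68%, 3.75 to 5.83), and in bin 5 7.42% did. The share was 12.3% in bin 8, 20.8% in bin 9 (602.49 to 1242.53) and 46.4% (43.9 to 48.8) in bin 10 (1243.33 to 3230.05). Even in bin 10 852 of 1603 peaks were members. When replicate 1 was cut to its 3204 highest-scoring peaks, the number that replicate 2 has, 2115 (66.0%, 64.4 to 67.6) were members, against 92.4% of the other 12824 peaks.

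**Figure D2:**
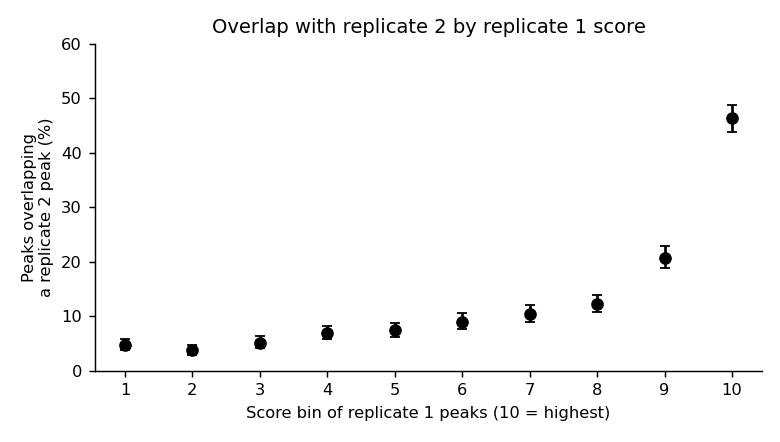
Share of replicate 1 peaks that overlap a replicate 2 peak (y axis, %) in each of 10 bins of replicate 1 peaks by score (x axis, bin 10 the highest). Points are shares and bars are 95% Wilson intervals; the share stays at or below 12.3% through bin 8 and reaches 46.4% in bin 10.

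Members were also shorter over all scores together, though not within every score bin. Their median length was 936 bp (927 to 945), with a range from 284 to 15136 bp, against 1321 bp (1266 to 1372) for shared peaks, which reached 25135 bp. Peaks longer than 2000 bp made up 9.29% of members (1297 peaks) and 28.2% of shared peaks (561). Within score bins the order of the medians turned. Members were the shorter class in bins 1 to 3 (719 against 729 bp in bin 1) and the longer class in the others, with 2668 against 2509 bp in bin 10. When each bin was split at its median length, the longer peaks overlapped replicate 2 more often in bins 1 to 3 (5.10% against 4.26% in bin 1) and the shorter peaks more often in bins 4 to 10 (48.9% against 43.8% in bin 10). Replicate 2 peaks themselves were shorter, with a median of 587 bp, and where 1 shared peak matched 1 replicate 2 peak (1582 peaks) the replicate 2 peak lay wholly inside it in 36.3% of cases.

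The highest-scoring members were spread over 4 chromosomes and lay 5785 bp or more from the nearest replicate 2 peak. All coordinates are of the WS220 genome. The member with the highest score (3230.05) lay on chromosome II from 13525066 to 13529742 and was 4677 bp long, with the nearest replicate 2 peak 63040 bp away. A member of the same score on chromosome V, from 8534264 to 8535801, had its nearest replicate 2 peak at 73868 bp. The other members among the 5 highest lay on chromosome I from 3982644 to 3987031 (score 3204.84, 7373 bp from replicate 2), on III from 3067267 to 3069532 (3194.13, 5785 bp) and on I from 7259874 to 7265106 (3188.01, 52982 bp). The longest members were a 15136 bp peak on X from 7351147 to 7366282, an 11632 bp peak on X from 16827238 to 16838869, and a 10419 bp peak on V from 20299631 to 20310049, all 3 with a score of 3100. Genes at these peaks were not assigned here, because gene models of the same genome build were not used.

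Few members sat at the edge of the overlap rule. The nearest to a replicate 2 peak was an 848 bp member on III from 10336747 to 10337594 (score 60.8), with a gap of 3 bp, followed by members on II from 4510390 to 4511153 (gap 5 bp, score 66.9) and on X from 12610245 to 12611422 (gap 16 bp, score 229.1). On the other side of the rule, the shared peaks with the smallest overlap were on X from 15520799 to 15522519 (1 bp, score 613.6), on IV from 10818720 to 10819504 (4 bp, score 260.4) and on X from 10650646 to 10651516 (6 bp, score 222.6). Only 59 members (0.422%) had a replicate 2 peak within 100 bp, 381 (2.73%) within 500 bp and 754 (5.40%) within 1000 bp. The median gap from a member to replicate 2 was 18560 bp (18029 to 19011), and the widest was 307174 bp. Members within 1000 bp of replicate 2 had a median score of 207.1 and those over 10000 bp away 164.3. The centres of shared and matching replicate 2 peaks were offset by a median of −12 bp, and by medians from −134 to 115.5 bp over 18 chromosome segments (each chromosome split in 3), which only peaks that already overlap can show.

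Against the other peaks of their own library, members were more widely spaced than shared peaks. The median gap to the nearest other replicate 1 peak was 967 bp (932 to 995) for members and 506 bp (471 to 565) for shared peaks, and 51.0% of members against 66.6% of shared peaks had a neighbour within 1000 bp. When replicate 1 peaks no more than 1000 bp apart were joined into chains, 6844 members (49.0%) stood alone, 6029 (43.2%) lay in 2390 chains of at least 2 members with no other peak, and 1055 (7.55%) lay in a chain with a shared peak. Members in a chain with a shared peak had a median score of 224, those in member-only chains 192.2 and those alone 149.8. In 111 member-only chains there were 5 or more members. The longest held 14 members over 26039 bp on chromosome IV, from 5977379 to 6003417, and chains of 9 members lay on I (1771394 to 1785477) and III (13639809 to 13658554).

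**Figure D3:**
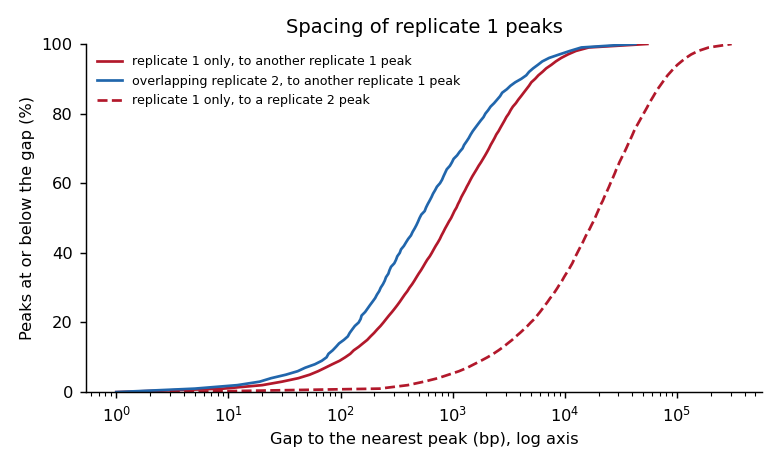
Cumulative share of peaks (y axis, %) against the gap to the nearest peak (x axis, bp, log axis), for members to another replicate 1 peak (red), shared peaks to another replicate 1 peak (blue) and members to a replicate 2 peak (dashed). The medians are 967, 506 and 18560 bp.

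Members were found on all 6 chromosomes in near-equal numbers, from 2191 on X (15.7% of members) to 2465 on V (17.6%). Per length of chromosome they were densest on I (162 per Mb), III (162) and II (157) and less dense on IV (129), X (124) and V (118). Members were between 85.5% (X) and 88.2% (II and V) of the replicate 1 peaks of a chromosome. Members on X were weaker and shorter than those on the autosomes, with a median score of 136.5 and a median length of 832 bp, against 171.2 to 189.6 and 946 to 975 bp. Shared peaks on X also had the lowest medians, with a score of 604.2 against 635.05 to 733.9. Their median length on X was 1263 bp, against 1264 to 1435.5 bp on the autosomes. Of the members with a score of at least 1000, 9.08% (7.54 to 10.9) were on X, against 18.8% (17.7 to 20.1) of those with a score under 100. Shared peaks at those scores were on X in 16.5% (14.03 to 19.2) and 18.3% (13.5 to 24.3) of cases. Member peaks covered 16503021 bp, 16.5% of the 100.2 Mb that the peaks of the 3 libraries span, from 13.1% of X to 19.6% of III, while shared peaks covered 3.66%.

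The clearest difference in position lay along the chromosomes. Each chromosome was split into a left, a middle and a right segment of equal length. Of the members, 39.9% lay in the left segment, 22.8% (22.2 to 23.6) in the middle and 37.3% in the right, whereas shared peaks were spread evenly, with 31.8%, 35.4% (33.3 to 37.5) and 32.8%. On the autosomes the middle segment held 22.3% of members and 36.7% of shared peaks, and on X 25.9% and 29.1%, with intervals that overlap on X (24.1 to 27.8 and 24.7 to 34.0). In 10 equal steps along the chromosome, member density fell from 176 per Mb at the left end to 89.4 per Mb in step 6, and stood at 167 per Mb at the right end. Shared peaks had 14.5 per Mb at the left end, 24.3 in step 5 and 17.6 at the right end. Seen from all replicate 1 peaks, 18.3% (17.1 to 19.6) overlapped replicate 2 in the middle segment, 10.4% in the left and 11.3% in the right.

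The dip in the middle was present on each chromosome. Members per Mb in the middle segment against the outer segments were 106 against 189 on I, 91.9 against 189 on II, 119 against 183 on III, 93.3 against 146 on IV, 76.0 against 139 on V and 96.2 against 137 on X. Shared peaks had the higher density in the middle segment on II (26.1 against 16.9), III (26.8 against 21.9), IV (20.2 against 19.6) and V (17.7 against 13.7), and the lower on I (20.5 against 24.0) and X (17.6 against 21.4). Members had a lower share in the middle segment than shared peaks in every score bin, from 20.5% to 26.6% against 30.8% to 46.7%. Over all replicate 1 peaks 24.4% lay in the middle segment, and over all replicate 2 peaks 39.5% (37.8 to 41.2). Members closer to replicate 2 were more central, with 33.2% in the middle segment within 1000 bp, 29.6% from there to 10000 bp and 19.2% beyond. Replicate 2 peaks were themselves denser in the middle segment, so distance to replicate 2 and position are tied. The median gap of members to replicate 2 was 12454 bp in the middle, 20390.5 bp in the left and 20939 bp in the right segment.

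**Figure D4:**
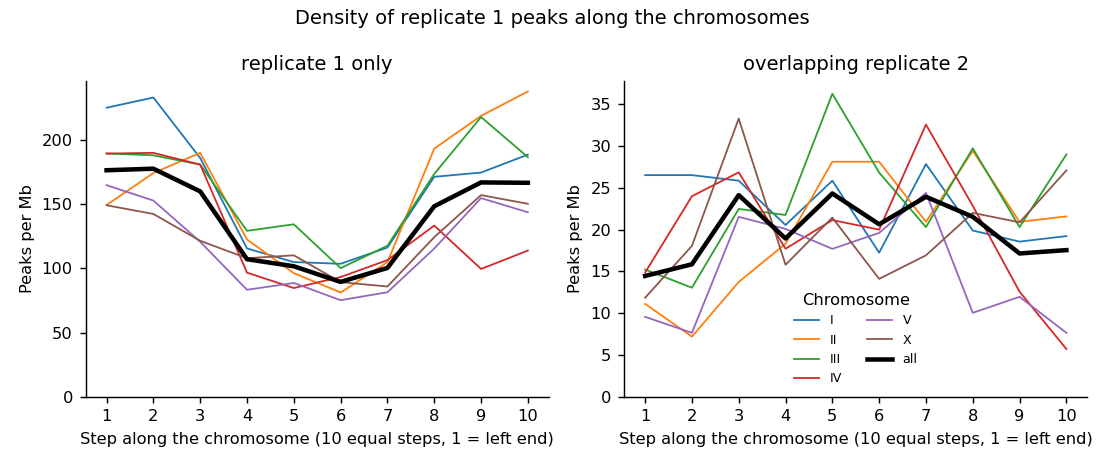
Peaks per Mb (y axis) in 10 equal steps along a chromosome from the left end (x axis), for members (left) and shared peaks (right), as a thin line per chromosome and a thick black line for all 6 together. Members dip from 176 per Mb at the left end to 89.4 in step 6, whereas shared peaks stay between 14.5 and 24.3.

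In windows of 100000 bp the numbers of members and shared peaks bore little relation to each other. The 998 full windows held a median of 13 members (10% with 6 or fewer, 10% with 23 or more), and 1 window had none, while 292 windows had no shared peak. Across windows, Pearson's r between members and shared peaks was −0.03 and Spearman's rho −0.01. These windows share a library and the windows of a chromosome are not independent. The window with the most members, 37 beside 1 shared peak, was on I from 2700001 to 2800000. Windows with 34 members on I (11500001 to 11600000) and 33 on V (100001 to 200000) held no replicate 2 peak.

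A-to-I edited regions are a readout from other libraries that took no part in choosing the members. Of 144 edited regions with usable coordinates, 60 (41.7%, 33.9 to 49.8) were overlapped by a member, 6 (4.17%, 1.92 to 8.79) by a shared peak and 1 by both. Some of the 144 regions overlap each other, and 138 remain after merging. The intervals count overlapping regions as separate. Intronic regions were overlapped by members in 31 of 83 cases (37.3%), UTR regions in 22 of 49 (44.9%) and others in 7 of 12. In bases, members covered 11.6% of the edited sequence and 16.5% of the genome span, and shared peaks 4.86% and 3.66%. The value for shared peaks rested on a single intronic region of spsb-1, where they covered 5372 bp, and was 1.17% without it. Without the region that members covered most, their value was 11.1%, still below their share of the span. Of the edited regions, 14.6% lay in the middle segment of a chromosome, where members were less dense. The share of the whole span is therefore not a background matched for position. Put the other way round, 64 members (0.458%, 0.359 to 0.585) and 10 shared peaks (0.502%, 0.273 to 0.922) touched an edited region. The 64 members had a median score of 301.1 and a median length of 1039 bp.

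The edited regions most covered by members belonged to genes of many kinds. The single largest cover was 1487 bp of the 6965 bp edited 3′ UTR region of Y111B2A.19 on III (12697633 to 12704597), by 1 member with a score of 173.3. An intron of Y65B4A.6 on I (629780 to 631050) was 93.2% covered. In the 3′ UTR of alh-7, an aldehyde dehydrogenase gene on II (13485837 to 13487353), 2 members covered 1144 bp, and the stronger had a score of 3100. The whole edited region listed for rncs-1, a noncoding RNA with a long double-stranded stem (X, 1011575 to 1012208, 634 bp), lay under 1 member with a score of 891.2. Others among the 20 with most covered bases were introns of gap-3 (a Ras GTPase-activating protein), rpm-1 (a ubiquitin ligase of synapse formation), lem-2 (a nuclear envelope protein), rsd-2 (needed for the spread of RNAi) and unc-34 (an Ena/VASP actin regulator), and 3′ UTRs of lin-7 (a PDZ scaffold), aps-3 (a subunit of the AP-3 adaptor) and egl-2 (a potassium channel). The list is completed by introns of T20B3.1, Y51F10.7, Y48G1BL.4, pqn-80 and Y53F4B.21 and the 3′ UTRs of Y67D2.7, C34H4.1 and Y92H12BL.4.

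J2-IP values exist for 47 of the 55 genes whose edited regions were overlapped by members and by no shared peak, and 39 of them passed the filter on enrichment over input. In the wild type the J2-IP mean of these 39 genes was between 1.19 and 20.7 times the input value (median 3.07), with rncs-1 the highest. As a check of the labels, tdp-1 itself stood at 38 in the input of wild type and at 12 in that of the mutant (normalized counts), but the J2-IP gave 27, 27 and 25 in wild type against 53, 61 and 50 in the mutant. The J2-IP values had been normalized to input by the authors, and how the mutant values were scaled was not verified. The ratios to the input values given here may therefore not be fold enrichments. Fewer cells with a transcript and less RNA per cell cannot be told apart in whole animals.

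Of the 39 genes, 9 were called higher and 2 lower in tdp-1(ok803) than in wild type, and 28 were not called (limma, p under 0.05 and adjusted p under 0.1 after Benjamini-Hochberg). Over all 3964 genes fitted, 42.7% were called higher and 8.12% lower. The filter itself shapes these counts, since a gene could pass through the genotype in which it was high. Of the 39 genes, 4 passed through tdp-1(ok803) alone (egl-4, tpst-1, pqn-27 and F47G9.1), and all but tpst-1 were called higher; the other 35 gave 6 higher and 2 lower. Of all genes fitted, 1351 passed through tdp-1(ok803) alone and 1060 of them were called higher. With no filter on input, a choice for the whole list made after the data were seen, 12 of the 47 genes were called higher and 2 lower, against 46.3% and 6.24% of 8392 genes. The median log2 fold change was 0.00 over the 39 genes and 0.22 over all genes. Of 53 fitted genes of edited regions that no replicate 1 peak touched, 9 were called higher and 5 lower, with a median of 0.04. These counts depend on the scaling. After quantile normalization 3 of the 39 were higher and 19 lower, with a median of −0.22 against −0.02 over all genes. With the mutant values multiplied by the ratio of the inputs, an alternative added after the data were seen, 1 was higher and 9 lower, with a median of −0.15 against −0.06.

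Among the named genes, rncs-1 was lower in tdp-1(ok803). The wild-type libraries had J2-IP normalized counts of 394, 447 and 522 and the mutant libraries 280, 390 and 291, so the groups did not overlap, and the input values were 22 and 29. Its difference on the log2 scale was −0.51 (standard error 0.16, adjusted p of limma = 0.046). The call was lost when any of 4 libraries was left out (wild-type replicate 2 or 3, tdp-1(ok803) replicate 1 or 3, adjusted p from 0.118 to 0.140) and with the input ratio (−0.11).

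In contrast, pqn-80, which encodes a protein rich in glutamine and asparagine, was higher, at 208, 209 and 234 in the wild-type and 248, 300 and 274 in the mutant libraries. Its difference on the log2 scale was 0.33 (standard error 0.09, adjusted p of limma = 0.026). It was 0.08 after quantile normalization. With the input ratio it was −0.26 (standard error 0.09, adjusted p of limma = 0.082), where the input values were 95 and 63. Y67D2.7 was called higher at 45, 44 and 54 against 56, 76 and 60 (0.41 on the log2 scale, standard error 0.14, adjusted p of limma = 0.061). Its call was lost without wild-type replicate 1 or 2 or tdp-1(ok803) replicate 2 or 3, after quantile normalization (0.19) and with the input ratio (0.26).

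The other 12 named genes that were fitted were not called. The highest of these was lem-2, with 897, 841 and 1042 in the wild-type and 735, 961 and 947 in the mutant libraries (log2 fold change −0.08, standard error 0.13). Y53F4B.21 varied most between libraries, at 149, 75 and 156 against 142, 97 and 298, and its difference of 0.41 had a standard error of 0.47. For rpm-1 the values were 213, 219 and 216 against 192, 216 and 194. The not called genes alh-7, gap-3, lin-7, rpm-1, lem-2, unc-34 and Y92H12BL.4 were called lower after quantile normalization. With the input ratio, rpm-1 was called lower (−0.56 on the log2 scale, adjusted p of limma = 0.0025). So were Y92H12BL.4 (−0.31, adjusted p of limma = 0.026) and aps-3 (−0.39, adjusted p of limma = 0.072).

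**Figure D5:**
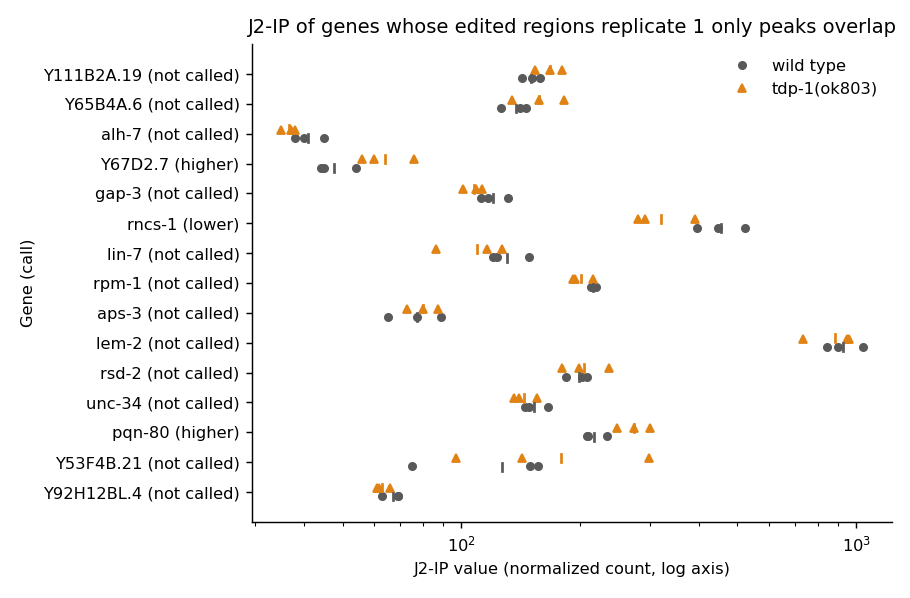
J2-IP values (x axis, normalized counts, log axis) of the 15 fitted genes named by their covered edited regions (y axis, with the call), in 3 wild-type (circles) and 3 tdp-1(ok803) (triangles) libraries; short bars are means. Y67D2.7 and pqn-80 were called higher and rncs-1 lower, and the others were not called.

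The remaining calls fell on genes chosen for mention after their values were seen. Y75B8A.7 had the lowest adjusted p, with 179, 199 and 192 in the wild-type and 309, 323 and 327 in the mutant libraries (0.75 on the log2 scale, standard error 0.06, adjusted p of limma = 6.8e-04). Its input values were 123 and 56. With the input ratio the gene was called lower instead (log2 fold change −0.38, standard error 0.06, adjusted p of limma = 0.0084). Y92H12BL.1 was lower, at 444, 484 and 505 against 320, 420 and 394 (−0.34 on the log2 scale, standard error 0.11, adjusted p of limma = 0.052), a call lost without wild-type replicate 2 or 3. The other genes called higher were Y92H12BL.5, egl-4 (a cGMP-dependent protein kinase), epc-1 (an Enhancer of polycomb homolog), pqn-27, F47G9.1 and W02H5.1. Of these, egl-4, pqn-27 and F47G9.1 are genes that passed the filter through tdp-1(ok803) alone. The call of W02H5.1 was lost without wild-type replicate 1 or 2, without tdp-1(ok803) replicate 3 and after quantile normalization, where those of Y92H12BL.5, egl-4 and epc-1 were lost too. With the input ratio, Y92H12BL.5, egl-4, epc-1, pqn-27 and F47G9.1 were no longer called higher.

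Some genes shared a member. The edited 3′ UTR regions of Y92H12BL.4 (I, 1375966 to 1376933) and Y92H12BL.5 (I, 1375810 to 1376920) overlap each other and lie under the same member, with a score of 124.3. Y92H12BL.5 was called higher, at 164, 160 and 192 against 202, 291 and 233 (0.48 on the log2 scale, standard error 0.15, adjusted p of limma = 0.043), a call lost without wild-type replicate 1 or 2. Y92H12BL.4 was not called, at 63, 69 and 69 against 61, 66 and 62. Which gene a read of the overlap was counted for is not given in the sources used here.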

How the data were processed

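ChIP reads were aligned to WS220 with Bowtie and peaks were called with MACS by the authors, who deposited each library's peaks with positions and a score. RNase peaks were called against genomic sequencing. Overlap was a shared base, and spans end at the last peak base. The members and gene lists were chosen with earlier results of these data known. The J2-IP and input values deposited by the authors are whole numbers made by rounding normalized counts, treated here as a score, and the J2-IP values were normalized to input by them. Per the labels, TopHat2 2.0.10, HTSeq 0.5.4p3 and DESeq 1.16 were among the tools, in no stated role for a given table. From the authors' editing list, positions, kind and other descriptors were used. Their columns of genotype change, fold and p were not. Of 204 regions 148 had coordinates; 3 with an end before the start and 1 over 20000 bp were left out after the data were seen.

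J2-IP genes (8604 of 8783 joined to input by name) were kept with a value in each of the 3 libraries of either genotype and a mean more than 1.5 times the wild-type input. limma 3.58.1 (R 4.3.3) was fitted with a trend to log2(value + 1) over 3964 genes, so fold changes of low genes are understated. The fit was also run on simulated data with changes balanced up and down. Those data held no shift over all genes, so they cannot test the scaling. Replicates are separate lysates. Deviations of same-numbered libraries correlated at 0.371, 0.782 and 0.534, so a replicate block was also fitted. Positions were handled with Python 3.11.15, numpy 2.4.6 and pandas 2.3.3.

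Named peaks are the 5 highest-scoring, the 3 longest and the 3 nearest each side of the rule. Named genes are up to 20 by edited bases covered by members but no shared peak. Other overlaps, score minimums, pseudocounts, filters, scalings and left-out libraries were tried. The 6 poly(A) columns were not used, and peak sequences were not analysed here.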

Additional observations from a re-analysis of the deposited data

How the results depend on the processing

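Whether a peak was removed by an overlap of 50% of the shorter peak, by a peak within 100 or 500 bp, or with the RNase library ignored, members were 84.7% to 88.8% of replicate 1 peaks. The share was 88.8% with the 50% overlap and 84.7% with 500 bp. With a score of at least 100 in both replicates it was 86.5%, and the median score was 263.4, the median length 1102.5 bp, the share on X 14.4% and the median gap to the nearest replicate 1 peak 1294 bp. Among as many top replicate 1 peaks as replicate 2 has, 2115 (66.0%) were members, with a median score of 1049.8, a median length of 1957 bp, 20.7% in the middle segment, 10.4% on X, a median gap of 4947 bp and 15 edited regions overlapped; fewer peaks enter by construction. Neither ChIP replicate could be left out, since the rule needs both.

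Over all J2-IP genes, 3883 were called higher and 524 lower with no filter on input (more genes tested), 860 and 1033 after quantile normalization, and 384 and 858 with the input ratio, chosen after seeing the data. For the 39 genes these counts were 3 and 19 after quantile normalization and 1 and 9 with the input ratio. Leaving out a library gave 1408 to 1696 higher and 206 to 347 lower over all genes, and 6 to 12 and 0 to 4 among the 39. The replicate block, from the pairing of same-numbered lysates, gave 1697 and 316 over all genes, and 9 and 3 among the 39, and changed no call of a gene named here. The direction turned after quantile normalization for Y111B2A.19 (−0.14), Y65B4A.6 (−0.10), aps-3 (−0.18), rsd-2 (−0.21) and epc-1 (−0.10), and with the input ratio for Y111B2A.19 (−0.18), aps-3 (−0.39), rsd-2 (−0.18), pqn-80 (−0.26), Y92H12BL.5 (−0.20), egl-4 (−0.077), Y75B8A.7 (−0.38) and epc-1 (−0.11). It also turned without a library for aps-3 (range −0.052 to 0.17), rsd-2 (−0.066 to 0.13), lem-2 (−0.15 to 0.048) and Y53F4B.21 (−0.036 to 0.77). The causes were not tested. The depth behind the scores and J2-IP values is unknown.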

Other observations

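The 920 replicate 2 peaks with no overlap in replicate 1 (28.7% of replicate 2, 95% Wilson interval 27.2 to 30.3) had a median score of 127.7 and a median length of 481 bp, and 51.0% of them (47.8 to 54.2) lay in the middle segment of a chromosome. Of replicate 2 peaks, 61.1% overlapped replicate 1 in the lowest of 10 score bins and 96.9% in the highest. The 70 replicate 1 peaks that overlapped an RNase peak had a median score of 1755 and a median length of 2205.5 bp.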
